A study of Mus musculus with 8 samples.

Results

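Collagen hydroxylases and lysyl oxidases are the enzymes that modify collagen chains inside the cell and crosslink them outside it. The 10 genes described here were chosen by name, as 5 lysyl oxidase genes (Lox, Loxl1, Loxl2, Loxl3 and Loxl4), 2 genes for the alpha subunit of collagen prolyl 4-hydroxylase (P4ha1 and P4ha2) and 3 lysyl hydroxylase genes (Plod1, Plod2 and Plod3). All 10 were among the 17631 genes of the authors' table. RNA was sequenced from the apical part of mouse lower first molars, the part that holds the growing root, at postnatal day 7.5 in C57BL/6 mice. The mutant group was Gli1-CreERT2;Runx2fl/fl, in which a tamoxifen-inducible recombinase is driven from Gli1, and the control group was Runx2fl/fl, which carries the same floxed alleles without the driver. Each group had 4 libraries, and per the labels' protocols the treatment was tamoxifen into the peritoneum at postnatal day 3.5. The comparison asks which transcripts of the developing root differ when Runx2, which bone-forming cells need in order to arise, is deleted in cells that express Gli1. The driver and the loss of Runx2 cannot be told apart, since the mutant group alone carries the driver.

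Collagen is built in the endoplasmic reticulum, where prolyl 4-hydroxylase converts prolines of the chain to hydroxyproline, without which the triple helix is not stable at body temperature. Lysyl hydroxylases convert lysines of the helix and of the non-helical ends to hydroxylysine, which carries sugars and sets the chemistry of the later crosslinks. After secretion, lysyl oxidases use copper to oxidise lysines and hydroxylysines of collagen and elastin, and the aldehydes so formed react into the crosslinks that give dentin, bone and the periodontal ligament their strength.

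Group means of normalised expression, given below without a unit, were deposited by the authors for each gene, with their p-value and its adjustment over all 17631 genes. Values for single libraries were not used here, so the spread between libraries, the overlap of the groups and the depth behind a value are unknown. The labels do not say whether each library is 1 animal, so the spread behind the p-values may be technical in part. The targeted gene Runx2 had a mean of 65.1 in mutant molars and 105.5 in control molars, with an adjusted p of 0.0646 in the authors' deposited table. That mean covers the whole gene, including parts outside the floxed piece, and cells without the recombinase. In bulk tissue, fewer cells of a type and less RNA per cell cannot be told apart.

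The 2 alpha subunit genes of prolyl 4-hydroxylase and Plod3 are shown first by their promoters, because P4ha1 had the greatest ratio of the 10 genes and P4ha2, its partner in the family, stood on the other side of 0, while Plod3 had the second lowest p-value. RefSeq windows on GRCm38.p6 from 250 bases before to 50 bases after the start were searched for 5 of the 10 genes (Loxl4, P4ha1, P4ha2, Plod1 and Plod3). The remaining members, Lox among them, were not searched, so the motif counts below do not cover them. Capitals mark the letters of the RUNX core motif (TGTGGT, or ACCACA on the other strand) and of the core of the hypoxia-response element (ACGTG, or CACGT on the other strand). The sequences read 5′ to 3′ on the strand of the gene, which is the plus strand for all 3, at chr10:59323046-59323345 (P4ha1), chr11:54100674-54100973 (P4ha2) and chr5:136986769-136987068 (Plod3).
P4ha1: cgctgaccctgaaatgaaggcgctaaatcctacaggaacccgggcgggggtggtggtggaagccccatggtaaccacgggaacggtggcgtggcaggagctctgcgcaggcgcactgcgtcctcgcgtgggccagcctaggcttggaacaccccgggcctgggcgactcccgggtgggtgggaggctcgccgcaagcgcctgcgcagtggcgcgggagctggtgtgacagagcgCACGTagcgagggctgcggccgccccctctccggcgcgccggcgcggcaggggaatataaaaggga
P4ha2: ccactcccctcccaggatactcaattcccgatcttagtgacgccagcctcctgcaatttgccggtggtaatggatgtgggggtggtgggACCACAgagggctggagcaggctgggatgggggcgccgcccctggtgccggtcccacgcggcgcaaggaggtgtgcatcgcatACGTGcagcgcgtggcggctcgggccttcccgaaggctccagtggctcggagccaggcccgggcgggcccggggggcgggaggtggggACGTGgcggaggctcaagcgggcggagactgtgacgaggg
Plod3: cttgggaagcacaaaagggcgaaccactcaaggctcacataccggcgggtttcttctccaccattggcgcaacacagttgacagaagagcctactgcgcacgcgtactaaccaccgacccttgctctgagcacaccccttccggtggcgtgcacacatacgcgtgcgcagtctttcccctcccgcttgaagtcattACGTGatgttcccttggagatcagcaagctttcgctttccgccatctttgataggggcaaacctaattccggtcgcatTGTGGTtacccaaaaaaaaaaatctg

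The RUNX core TGTGGT was found once in P4ha2, with its first base at position -161, counted back from the start, and once in Plod3, with its first base at position 25 of the transcript. The P4ha2 window lies within the annotated gene, which begins at chr11:54100095 and has 15 transcripts, so its start is an internal one. P4ha1, Plod1 and Loxl4 had no match in these windows. Among all 32851 promoter windows of the table, 16.8% held this motif, and the variant TGCGGT, or ACCGCA on the other strand, present in 6.45% of them, was in none of the 5. The hypoxia core ACGTG was found in 3 of the 5 windows, with 1 match in P4ha1, 2 in P4ha2 and 1 in Plod3, against 19.6% of all windows with at least 1. The GC content of the 5 windows lay between 53.3% in Plod3 and 75% in Loxl4. Windows of like GC content were not compared, so no excess of either motif is drawn from these counts. No match overlapped another. A match of letters is a description of the window and not a bound site.

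None of the 10 genes was called at an adjusted p under 0.05 in the authors' deposited table, where 0.788% of all genes were called, 0.471% as higher and 0.318% as lower in mutant molars. None was under an adjusted p of 0.1 either, a limit that 3.64% of all genes met. P4ha1 alone had an unadjusted p under 0.05, against 19.3% of all genes (9.89% higher and 9.4% lower in mutant molars), so the share of 1 in 10 was no greater than the background. Of the 10 genes, 5 had a higher and 5 a lower mean in mutant molars, where 50.6% of all genes had a higher one, and the median log2 ratio of mutant over control was 0.00, as it was over all genes. With both groups rescaled to the same summed mean, which adds 0.137 to every log2 ratio given here, all 10 were higher in mutant molars. Without the 20 most abundant genes in that sum, the shift was 0.0196 and 7 of the 10 were higher. Most of the difference between the summed means (955256 in mutant molars and 1050684 in control molars) lay in the 7 ameloblast markers described below. Their means summed to 178088 in mutant molars and 262615 in control molars. The median size of the log2 ratio, whatever its sign, was 0.05 for the 10 genes and 0.17 for all genes. Among the 3850 genes whose higher group mean lay in the same range as those of the 10 (41.5 to 378.6), that median was 0.13, 1.19% were called and 27.1% had an unadjusted p under 0.05. The called gene of that range nearest to no difference had a log2 ratio of 0.31 in size, or 1.24-fold. A p-value that misses the threshold does not show that 2 means are equal.

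**Figure D1:**
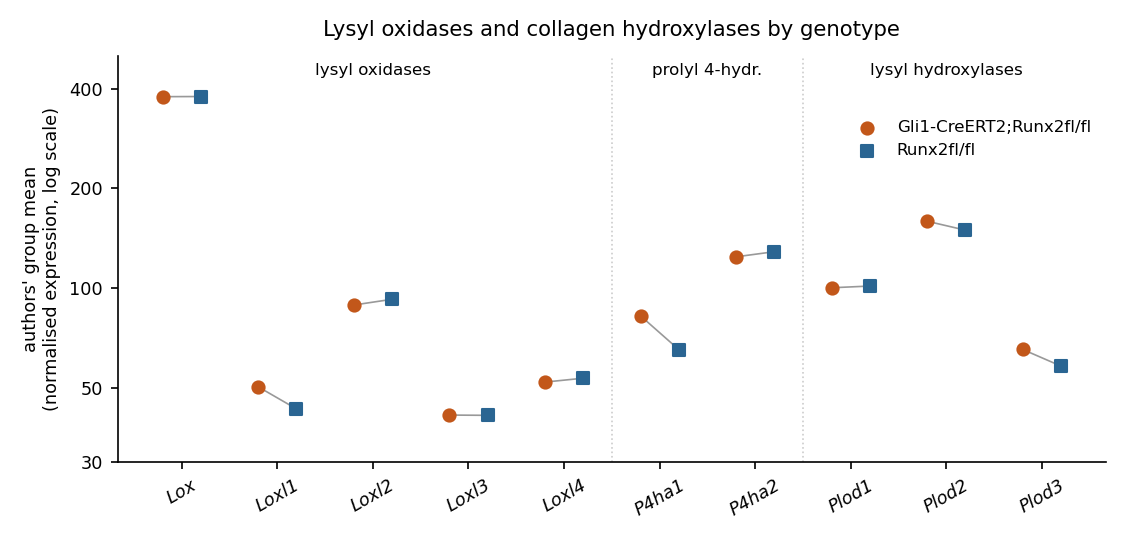
Authors' group means of normalised expression (vertical axis, log scale) for the 10 genes, with the mutant as circles on the left and the control as squares on the right of each pair, and no error bars because no library values were used. The pairs of Lox, Loxl3 and Plod1 are nearly level, and the steepest pair is P4ha1 (82.6 in mutant molars and 65.4 in control molars).

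Lox encodes the founding member of the lysyl oxidase family, which crosslinks fibrillar collagen and elastin. Its mean was 378.2 in mutant molars and 378.6 in control molars, a log2 ratio of 0.00 (adjusted p = 0.967 in the authors' deposited table). With this, Lox lay closer to a ratio of 1 than nearly all genes, at percentile 0.510 for the size of the log2 ratio. It was also the most abundant of the 10, at percentile 98.5 of all genes by its higher mean.

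Loxl1 encodes a lysyl oxidase required for the upkeep of elastic fibres in mice. It had means of 50.4 in mutant molars and 43.3 in control molars (log2 ratio 0.22, and an adjusted p of 0.472 in the authors' deposited table). This was the greatest difference among the 5 lysyl oxidase genes. Loxl2, whose protein carries scavenger receptor domains and crosslinks type IV collagen of basement membranes, had 89.0 in mutant molars and 92.7 in control molars (log2 ratio -0.06). The authors' deposited table gave it an adjusted p of 0.768. Loxl3, needed for the palate and the spine in mice, had 41.5 in mutant molars and 41.4 in control molars (log2 ratio 0.00, adjusted p = 0.943 in the authors' deposited table). Loxl4, another member with scavenger receptor domains, had 52.1 in mutant molars and 53.6 in control molars, with a log2 ratio of -0.04 (adjusted p = 0.983 in the authors' deposited table). Summed over the family, the means of the 5 lysyl oxidase genes were 611.3 in mutant molars and 609.5 in control molars, so their total differed by less than 1%.

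P4ha1 encodes the alpha subunit that carries most collagen prolyl 4-hydroxylase activity in many cell types. Its mean was 82.6 in mutant molars and 65.4 in control molars, which is 1.26-fold higher in mutant molars (log2 ratio 0.34). The unadjusted p was 0.0329 and the adjusted p 0.217 in the authors' deposited table, so the difference did not pass over all genes. Its log2 ratio lay at percentile 86.9 of all genes. P4ha2, the second alpha subunit, had 124.4 in mutant molars and 128.9 in control molars, a log2 ratio of -0.05 with an adjusted p of 0.767 in the authors' deposited table. The mean of P4ha1 as a share of that of P4ha2 was 66.4% in mutant molars and 50.7% in control molars. P4hb, the beta subunit that pairs with either and is also known as protein disulfide isomerase, had 782.2 in mutant molars and 821.7 in control molars (log2 ratio -0.07). The balance of the 2 alpha subunits was given as means only, since a test of it needs values per library.

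None of the 3 lysyl hydroxylase genes was called. Plod1, which hydroxylates lysines of the collagen helix, had 100.4 in mutant molars and 101.6 in control molars (log2 ratio -0.02, adjusted p = 0.939 in the authors' deposited table). Plod2, which hydroxylates the lysines of the non-helical ends and so favours the crosslinks typical of bone, had 159.3 in mutant molars and 149.7 in control molars. Its log2 ratio was 0.09, with an adjusted p of 0.901 in the authors' deposited table. Plod3, whose protein also transfers sugars to hydroxylysine, had 65.4 in mutant molars and 58.3 in control molars (log2 ratio 0.17). In the authors' deposited table the p of Plod3 was 0.0976 unadjusted and 0.341 adjusted. The order of the p-values did not follow the order of the ratios. The log2 ratio of Plod2 was greater in size than that of Loxl2, yet its unadjusted p in the authors' deposited table was larger, at 0.780 for Plod2 and 0.547 for Loxl2.

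**Figure D2:**
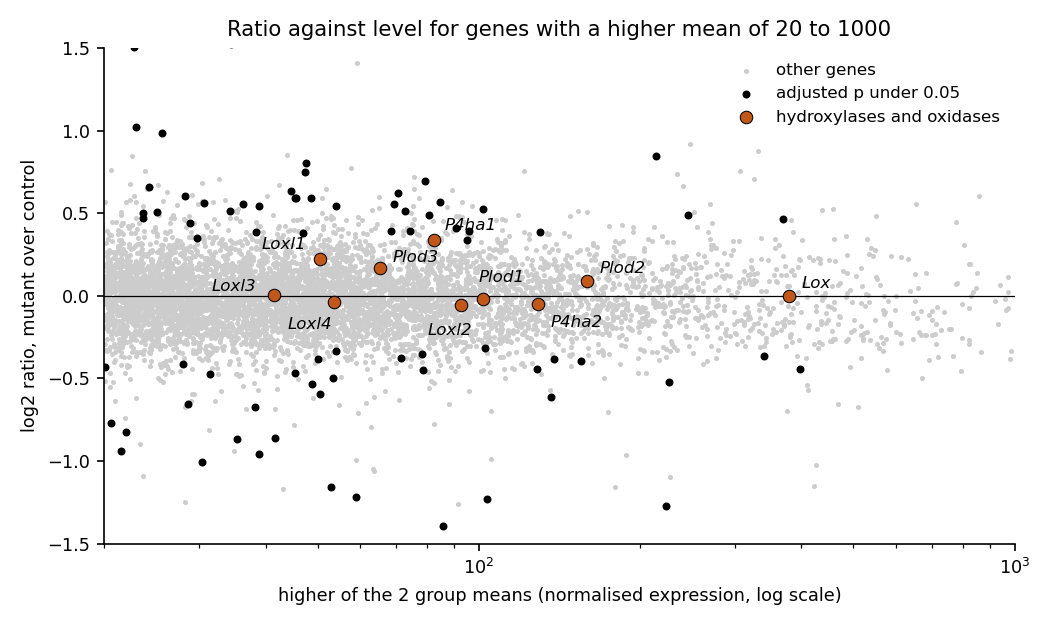
Log2 ratio of mutant over control (vertical axis) against the higher group mean (horizontal axis, log scale) for genes with a mean of 20 to 1000; genes called at an adjusted p under 0.05 are black and the 10 hydroxylase and oxidase genes are orange. The 10 lie between -0.06 and 0.34, inside the cloud of uncalled genes, and 4 genes beyond 1.5 in size are not drawn.

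Levels of different genes were compared per length, as the group mean divided by the kilobases of exon in GENCODE M21. The table does not say whether its values had been divided by length before, so this order depends on that. Lox came first with 79.2 per kilobase in mutant molars and 79.2 in control molars, followed by Plod2 with 29.5 in mutant molars and 27.8 in control molars. P4ha1 had 20.1 per kilobase in mutant molars and 15.9 in control molars, and P4ha2 had 19.9 in mutant molars and 20.7 in control molars. P4ha1 thus had rank 3 of the 10 in mutant molars and rank 5 in control molars, while P4ha2 had rank 4 in mutant molars and rank 3 in control molars. Loxl2 had 16.5 per kilobase in mutant molars and 17.1 in control molars, and Loxl1 had 15.3 in mutant molars and 13.1 in control molars. Plod1 had 14.8 per kilobase in mutant molars and 15.0 in control molars, and Plod3 had 14.5 in mutant molars and 12.9 in control molars. The lowest levels per kilobase were those of Loxl4, with 12.4 in mutant molars and 12.7 in control molars, and of Loxl3, with 9.01 in mutant molars and 8.99 in control molars. Whether neighbours in this order differ beyond the spread between libraries could not be tested. Lox made up 59.8% of the summed lysyl oxidase level per kilobase in mutant molars and 60.4% in control molars, and Plod2 50.2% of the lysyl hydroxylase level in mutant molars and 49.9% in control molars.

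The partners of these enzymes in the endoplasmic reticulum did not pass either. Of 19 genes for other modifying enzymes, chaperones and export factors of procollagen, 0 were called at an adjusted p under 0.05, while 2 had an unadjusted p under 0.05 with a higher and 3 with a lower mean in mutant molars. Over all genes, 0.788% were called, and an unadjusted p under 0.05 came with a higher mean in 9.89% and a lower one in 9.4%. The median log2 ratio of the 19 was -0.10, with 8 higher and 11 lower means. In the authors' deposited table the lowest p-values belonged to Colgalt2, which adds galactose to hydroxylysine (2.16 in mutant molars and 1.41 in control molars, adjusted p = 0.129), to the disulfide isomerase gene Pdia3 and to Tmem38b. Pdia3 had 450.1 in mutant molars and 387.3 in control molars (adjusted p = 0.183 in the authors' deposited table). Tmem38b, an ion channel gene of the endoplasmic reticulum in which recessive mutations cause brittle bones, had 6.28 in mutant molars and 7.83 in control molars (adjusted p = 0.186 in the authors' deposited table). Fkbp10, a chaperone on which telopeptide hydroxylation by the Plod2 product depends, had 392.1 in mutant molars and 455.2 in control molars (log2 ratio -0.22, adjusted p = 0.199 in the authors' deposited table). In the prolyl 3-hydroxylase complex, P3h1 had 154.7 in mutant molars and 177.3 in control molars, Crtap 187.5 in mutant molars and 204.6 in control molars, and Ppib 256.1 in mutant molars and 273.5 in control molars. None of these 3 genes was called. Serpinh1, which encodes the collagen chaperone HSP47, had 1723 in mutant molars and 1514 in control molars (log2 ratio 0.19). Subtracting the GC and length trend described below gave log2 ratios of 0.62 for Colgalt2, 0.18 for Pdia3, -0.43 for Tmem38b and -0.10 for Fkbp10. They were -0.12 for P3h1, -0.02 for Crtap, -0.07 for Ppib and 0.32 for Serpinh1, and no gene of this list was called.

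None of 12 collagen chain and elastin genes was called, and 1 had an unadjusted p under 0.05, against 0.788% and 19.3% of all genes. The median log2 ratio was 0.08, with 9 higher and 3 lower means in mutant molars. The basement membrane chains Col4a1 (545.2 in mutant molars and 460.9 in control molars, log2 ratio 0.24) and Col4a2 (429.8 in mutant molars and 366.6 in control molars, log2 ratio 0.23) had the lowest p-values, with adjusted p = 0.256 and 0.310 in the authors' deposited table. Col2a1, the main chain of cartilage collagen, had 41.6 in mutant molars and 34.8 in control molars (adjusted p = 0.480 in the authors' deposited table). Col1a1 had 45190 in mutant molars and 45713 in control molars, so that the mean of Lox was 0.837% of that of Col1a1 in mutant molars and 0.828% in control molars. Eln, the elastin gene, had 92.6 in mutant molars and 96.6 in control molars, and Loxl1 reached 54.5% of its mean in mutant molars and 44.8% in control molars.

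Of 9 measured genes for the trimming of procollagen and for transglutaminase crosslinks, 0 were called, with 1 higher and 2 lower at an unadjusted p under 0.05 and a median log2 ratio of -0.19. Over all genes, 9.89% were higher and 9.4% lower at that limit, and 0.788% were called. Tgm2, a transglutaminase, had 28.1 in mutant molars and 20.4 in control molars (adjusted p = 0.121 in the authors' deposited table). Adamts2, which removes the amino-terminal propeptide, had 152.6 in mutant molars and 197.8 in control molars, and Pcolce2, which enhances removal of the carboxy-terminal one, had 6.09 in mutant molars and 9.00 in control molars. The authors' deposited table gave adjusted p-values of 0.156 and 0.182 for them.

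Among these lists, the called gene was in the scaffold of elastic fibres. Of 13 genes, Efemp1, which encodes the fibulin-type matrix protein fibulin-3, rose 3.87-fold, with means of 7.39 in mutant molars and 1.91 in control molars (adjusted p = 0.0228 in the authors' deposited table). No other gene of the 13 was called, and none was called lower, although 12 had a higher mean in mutant molars, 5 of them, Efemp1 included, with an unadjusted p under 0.05. Over all genes, 50.6% had a higher mean, 9.89% did so with an unadjusted p under 0.05, and 0.471% were called higher. The median log2 ratio of the 13 was 0.20, against 0.00 over all genes. This list was counted and not tested as a group.

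P4ha1, P4ha2, Plod2 and Lox are known targets of hypoxia-inducible factors in cultured cells, and a list of hypoxia-inducible genes was counted beside them. Of its 18 genes 0 were called, 6 had a higher and 12 a lower mean in mutant molars, and the median log2 ratio was -0.04. The 2 with an unadjusted p under 0.05 in the authors' deposited table, Slc2a1 and Hif1a, both had a higher mean in mutant molars. Among all genes 0.788% were called, and 9.89% had an unadjusted p under 0.05 with a higher mean. The glucose transporter gene Slc2a1 had 34.3 in mutant molars and 24.7 in control molars, Hif1a itself 125.2 in mutant molars and 109.8 in control molars, and the glycolytic regulator Pfkfb3 9.70 in mutant molars and 12.0 in control molars. The authors' deposited table gave these 3 adjusted p-values of 0.161, 0.182 and 0.263. Among 6 measured genes of other 2-oxoglutarate hydroxylases and of vitamin C and copper supply, 0 were called. Egln2, an oxygen-sensing prolyl hydroxylase, had 40.1 in mutant molars and 46.9 in control molars, and the copper pump gene Atp7a, which loads copper onto secreted enzymes, had 28.1 in mutant molars and 23.2 in control molars. Ogfod1, a prolyl hydroxylase of a ribosomal protein, had 15.0 in mutant molars and 13.1 in control molars. The authors' deposited table held adjusted p-values of 0.187 for Egln2, 0.200 for Atp7a and 0.354 for Ogfod1. With the GC and length trend subtracted, the log2 ratio was 0.54 for Slc2a1, -0.01 for Hif1a (0.19 as deposited) and -0.32 for Pfkfb3. It was -0.08 for Egln2, 0.09 for Atp7a (0.28 as deposited) and 0.12 for Ogfod1, and no gene of either list was called.

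**Figure D3:**
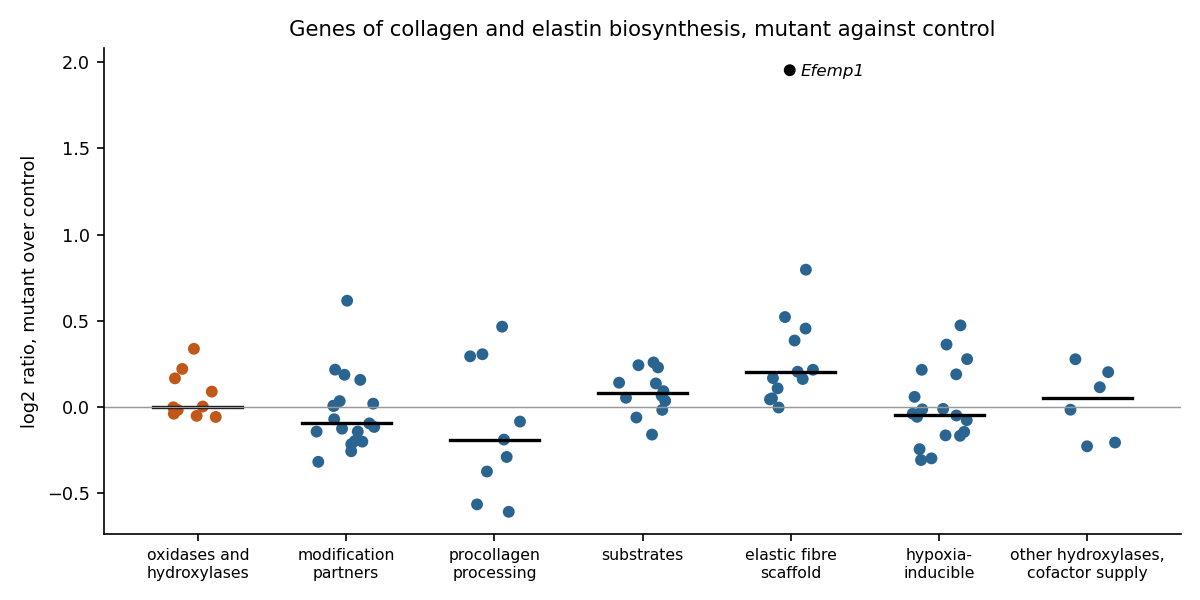
Log2 ratio of mutant over control for each measured gene of 7 sets (horizontal axis), with a bar at the median of each set and genes called at an adjusted p under 0.05 in black. The 10 oxidase and hydroxylase genes centre on 0.00, the elastic fibre scaffold on 0.20, and Efemp1 is the single called gene.

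Markers of the cell types in the tissue were counted in the same samples, and their part in the values above was not tested. Over all genes, 50.6% had a higher mean in mutant molars, 0.471% were called higher and 0.318% were called lower. Dspp, the defining dentin gene of odontoblasts, was abundant in both groups, with 7360 in mutant molars and 7714 in control molars. All 12 osteoblast markers had lower means in mutant molars (summed means 3468 in mutant molars and 5024 in control molars, median log2 ratio -0.41), and 2 of them, Sp7 and Bglap, were called lower. Of 5 odontoblast markers 4 had lower means in mutant molars (summed means 8627 in mutant molars and 8980 in control molars) and none was called. Dmp1 and Phex, both with a lower mean, were counted in this list and in the osteoblast list. Among 7 periodontal ligament and follicle markers 4 had higher means in mutant molars (summed means 638.1 in mutant molars and 437.6 in control molars), and Ogn was called higher. Ameloblast genes had 6 of 7 lower means in mutant molars (summed means 178088 in mutant molars and 262615 in control molars) with none called. Erythroid genes had 7 of 7 lower means (summed means 425.8 in mutant molars and 946.5 in control molars) and Hba-a1 was called lower. Skeletal muscle genes had 9 of 10 lower means, at low levels (summed means 11.2 in mutant molars and 12.8 in control molars). Of 8 smooth muscle and pericyte genes 3 had lower means (summed means 548.5 in mutant molars and 535.0 in control molars), among them Acta2 and Tagln, which were called lower. Endothelial genes had 1 of 6 lower means (summed means 239.1 in mutant molars and 216.3 in control molars), macrophage and osteoclast genes 4 of 7 (summed means 406.7 in mutant molars and 408.6 in control molars). Cartilage genes had 1 of 6 lower means (summed means 248.3 in mutant molars and 206.2 in control molars), and Hapln1 was called higher. No marker measured in these 10 lists had a mean of 0. After the GC and length trend described below was subtracted, the calls of Sp7, Bglap, Ogn, Hba-a1, Acta2, Tagln and Hapln1 ended. Their recomputed log2 ratios were -0.32 for Sp7, -0.64 for Bglap, 0.32 for Ogn, -1.07 for Hba-a1, -1.12 for Acta2, -0.94 for Tagln and 0.39 for Hapln1. Spon1, a matrix protein gene of the periodontal ligament list, was called lower after the subtraction (log2 ratio -0.86, adjusted p = 0.0477, recomputed from the p-values of the authors). The median of that list went from 0.67 as deposited to 0.06, and the medians of the other marker lists moved less. Those went from -0.41 to -0.31 (osteoblast), -1.09 to -0.91 (erythroid), -0.56 to -0.54 (ameloblast) and -0.61 to -0.50 (skeletal muscle). Odontoblast genes went from -0.07 to -0.10, smooth muscle genes from 0.07 to 0.05 and endothelial genes from 0.11 to 0.20. Macrophage genes went from -0.08 to 0.04 and cartilage genes from 0.17 to 0.18.

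Across 13128 protein-coding genes, the log2 ratio followed the GC content of the transcripts, with medians of 0.19 in the GC-poorest eighth and -0.13 in the GC-richest. The GC content of the 10 genes lay between 42.6% in Plod2 and 61.0% in Loxl1. When the trend on GC content and exonic length was subtracted, the log2 ratio of P4ha1 went to 0.27, that of Loxl1 to 0.36 and that of Plod3 to 0.26. Loxl1 and Plod3 then had the lowest p-values of the 10 recomputed from those of the authors (unadjusted p = 0.0235 and 0.0211, adjusted p = 0.301 and 0.295), and P4ha1 had an unadjusted p of 0.0818. None of the 10 was called in either form, where 0.165% of the genes were called after the subtraction, and Efemp1 kept its call (log2 ratio 1.87, adjusted p = 0.0435, recomputed from the p-values of the authors). The gene with the lowest p-value among the 10 was therefore P4ha1 as deposited and Plod3 after the subtraction.

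**Figure D4:**
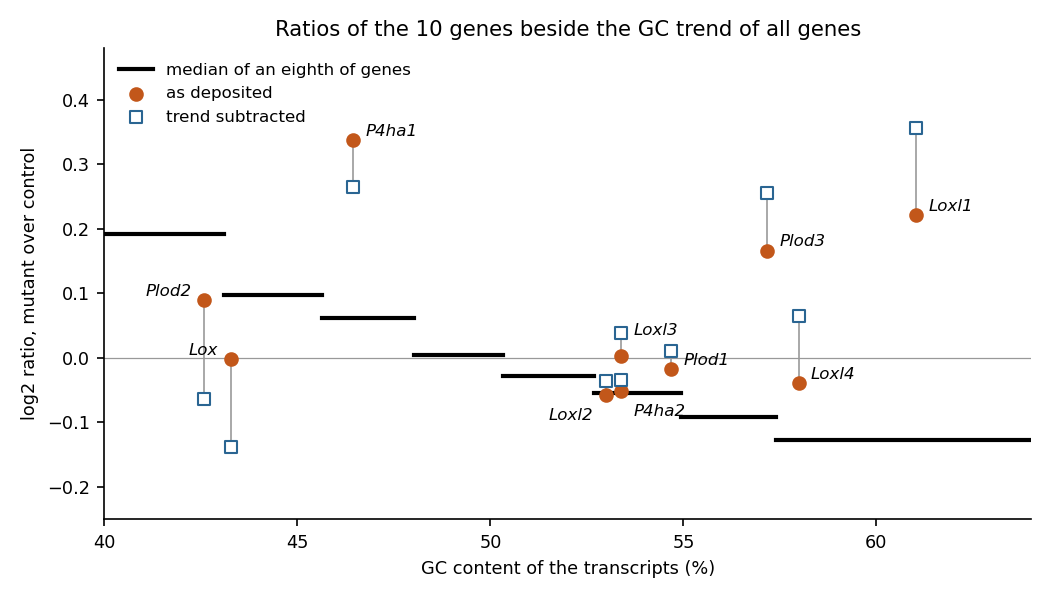
Log2 ratio of mutant over control (vertical axis) against the GC content of the transcripts (horizontal axis, percent) for the 10 genes, as deposited (circles) and with the GC and length trend subtracted (squares); black lines give the median of each eighth of 13128 protein-coding genes. Loxl1 moved up from 0.22 to 0.36, and P4ha1 moved down from 0.34 to 0.27.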

How the data were processed

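STAR 2.6.1d, Partek and mm10 are named, without roles, in the submitters' processing notes. How reads were counted, normalised and filtered, and which model gave the p-values, is not given in the sources used here. The deposited table compares knockout with wild type gene by gene, per the file headers (mutant and control here), and holds the authors' group means as a normalised signal on a linear scale. The deposited total per gene is 4 times the sum of both means (relative tolerance 1e-06). The deposited ratio is the mutant over the control mean, and the deposited signed fold change, handled here as a score because it has no values between -1 and 1, restates it. The p-value is the authors', and their deposited FDR, printed as adjusted p, equals its Benjamini-Hochberg adjustment over the 17631 genes.

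Over all genes the mutant means sum to 955256 and the control means to 1050684, and the depth of single libraries is unknown. Log2 ratios, counts per list and levels per kilobase were computed in Python 3.11.15. GENCODE M21, whose assembly GRCm38 is mm10, gave exonic length and GC content for 17562 genes. The GC and length trend was fitted with mgcv 1.9.3 (R 4.3.3) over protein-coding genes whose higher mean reached 1. It was fitted separately for the signed z, which gave the recomputed p-values, and for the log2 ratio. The calls after the subtraction were checked on simulated data. The members, the gene lists and the trend subtraction were chosen with earlier results of these data known. Named were all 10 members, Runx2 and, per pathway list, the called genes or else the 3 with the lowest p-value. P4hb, Fkbp10, P3h1, Crtap, Ppib, Serpinh1, Col1a1, Eln, Dspp and Spon1 were added once their values were known. Marker lists were given by counts, summed means and the genes called in them, and their uncalled genes were not named by p-value. Dmp1 and Phex were named because they are in both the osteoblast and the odontoblast list. The alternatives were other thresholds, filters on low means, other scalings, a pseudocount and the trend subtraction.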

Additional observations from a re-analysis of the deposited data

How the results depend on the processing

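No member was called at an adjusted p under 0.05 as deposited, at 0.1, with adjustment over genes whose higher mean reached 1 or the median (11.8), or after the trend subtraction, and 1 had an unadjusted p under 0.05. In the 6 pathway lists, with 77 genes, 1 gene was called higher and 0 lower, and at an unadjusted p under 0.05 these were 12 and 6. Over all genes, 0.471% were called higher and 0.318% lower, and at an unadjusted p under 0.05 these were 9.89% and 9.4%. With both groups rescaled to the same summed mean, every log2 ratio shifted by 0.137, mostly through the ameloblast genes. At that scaling all 10 members were higher in mutant molars, and Lox (0.136), Loxl2 (0.080), Loxl4 (0.098), P4ha2 (0.086) and Plod1 (0.120) changed sign. Without the 20 most abundant genes in that sum (shift 0.0196), Lox (0.018) and Plod1 (0.0023) changed sign, and centring on the median ratio put Loxl3 at -0.00064. The trend subtraction changed the sign of Loxl4 (0.064), Plod1 (0.0103) and Plod2 (-0.064). A pseudocount of 1 cannot change a sign, since it adds the same amount to both means. P4ha1, Loxl1 and Plod3 were higher in mutant molars under each of the other settings. These signs belong to ratios that were not called. Leaving out each replicate was not run, because the table holds no values per library. No paired analysis was possible because the table holds no values per library, although the labels number the libraries 2 to 5 in both groups.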
